A study of Homo sapiens with 9 samples.

Results

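HepG2 cells exposed for 72 h to 125 µM tris(2-butoxyethyl) phosphate (TBOEP) were compared with cells that received the solvent alone. HepG2 is an established human liver tumour line that keeps many functions of the hepatocyte. TBOEP, an ester of phosphoric acid, is added to polymers and floor finishes as a plasticiser and flame retardant. The 6 libraries compared, of 9 in the series, were chosen by their labels: 3 at 125 µM TBOEP and 3 controls, and both groups carried 0.1% DMSO. Each library came from cells seeded, treated, extracted and sequenced on their own, per the labels, all from 1 cell line, and the labels call the concentration free of cytotoxicity. The series' other 3 libraries, at 2.5 µM TBOEP for the same 72 h in 0.1% DMSO, were not part of the contrast. They entered the choice of the genes tested, the scaling and the estimate of the spread between replicates.

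The libraries held 10058205, 4925686 and 4023991 gene reads in controls 1 to 3, and 8106587, 11885877 and 2670690 at 125 µM. At these depths 3 reads correspond to a level of 0.252 to 1.12 CPM (reads scaled to library size). Of 57773 features 12901 had enough reads to be tested. The markers of hepatocytes all had reads, and their summed level was 71870 to 88610 CPM in controls and 46450 to 52630 at 125 µM. In controls the markers of other cell types summed to 1.02 to 3.28 CPM for endothelium, to 0.994 to 3.25 for leukocytes other than LYZ and to 40.8 to 44.7 for fibroblasts, with KDR, TEK, PTPRC, CD3E, COL1A2 and DCN at 0 reads in all 6 libraries. At 125 µM these sums were 1.77 to 2.25, 2.25 to 3.20 and 25.2 to 33.8 CPM. LYZ, the lysozyme gene, held nearly all reads of the leukocyte list and is given apart: with it the list summed to 2489 to 2979 CPM in controls and to 1881 to 2089 at 125 µM, and LYZ fell (log2 fold change -0.51). In RNA from whole cultures, fewer cells of a kind and less RNA per cell cannot be told apart.

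A hepatocyte in culture makes plasma proteins and metabolic enzymes, and keeps a surface coat of proteoglycans through which growth factors reach their receptors. Proteins for its mitochondria are made in the cytosol and carried inward by the translocases of the outer and inner membranes. Its messenger RNAs are spliced in the nucleus, so reads from introns come largely from RNA not yet spliced, and reads from exons mostly from finished messenger.

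At 125 µM, 2618 genes were higher than in controls (20.3% of those tested) and 2562 were lower (19.9%), so that 40.2% passed an adjusted p of 0.05. Adjusted p-values of genes are from edgeR's quasi-likelihood test with Benjamini-Hochberg adjustment, fold changes are given as log2 values with their SE from the same fit, and each group has n = 3 libraries. The groups did not overlap in 6562 genes, or 50.9%. The median log2 fold change of all tested genes was 0.0036. On the deposited RPKM values (exon reads per kilobase of exon, scaled to depth), tested with limma on log2(RPKM + 0.5), the split was 2811 higher and 1413 lower, and with 0.1 in place of 0.5 it was 2768 and 1393 with a median over all genes of 0.11.

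Well-expressed genes, those with a mean of at least 50 CPM over the 6 libraries, numbered 3736, and 843 of them were higher (22.6%) and 1036 lower (27.7%). Most of these changes were moderate. Between 0.32 and 1 on the log2 scale, 603 genes rose (16.1%) and 677 fell (18.1%), while 85 rose and 117 fell by 2-fold or more. On RPKM values with 0.5 added the moderate changes were 672 higher and 427 lower. In 585 of the 603 and 653 of the 677 the groups did not overlap. The same held for 2490 of all 2618 genes called higher and 2406 of all 2562 called lower. Over all tested genes, passed or not, it held for 50.9%. Of these genes 166 and 169 overlap another tested gene, with which they may share reads, and are uncertain for that reason.

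Genes named below as moderate changes, or as changes of 2-fold or more, were chosen by a rule that required groups without overlap. The moderate rises named by the smallest p included several proteins of the cell surface. DDR1, a receptor tyrosine kinase for collagen (chromosome 6, 30844198 to 30867933 on hg19), was at 48.0, 40.4 and 45.7 CPM in controls 1 to 3 and at 81.4, 91.2 and 88.8 CPM at 125 µM. The treated libraries all lay above the controls, and the log2 fold change was 0.96 ± 0.09 (edgeR adjusted p = 6.1e-06). TNFRSF12A, the receptor of the cytokine TWEAK, went from 53.3, 56.4 and 56.7 CPM to 104, 111 and 113 CPM, with no overlap (0.98 ± 0.09), and its span overlaps CLDN6. The tetraspanin TSPAN14 was at 77.6, 73.4 and 77.5 CPM in controls and at 144, 139 and 128 CPM in treated cells. The phosphate importer SLC20A1 was at 97.7, 124 and 102 CPM against 211, 218 and 194 CPM. Both had treated libraries above all controls, with log2 fold changes of 0.85 ± 0.08 and 0.95 ± 0.10.

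JAG1, a ligand of the Notch receptors, is split into numbered features in the files, and the well-expressed one rose from 327, 354 and 279.9 CPM to 649, 643 and 617 CPM (0.99 ± 0.11), overlapping RP11-103J8.1. DLK1, a membrane protein related to Notch ligands and made in the fetal liver, rose from 214, 192 and 212 CPM to 339, 361 and 334 CPM (0.74 ± 0.09). ACSL3 activates long-chain fatty acids. It was at 316, 362 and 354 CPM in controls and at 618, 646 and 639 CPM at 125 µM, a log2 fold change of 0.88 ± 0.09 (edgeR adjusted p = 1.2e-05). The other moderate rises named by the rule were ABR, a regulator of small GTPases that overlaps TIMM22 (0.87), METTL9, a methyltransferase (0.84), MRPL52 of the mitochondrial ribosome (0.69), EIF6, which keeps the ribosomal subunits apart and overlaps RP4-614O4.11 (0.75), and APRT, described below with the purines.

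Moderate falls included a hepatocyte plasma protein and an enzyme of retinoid metabolism. APOH, a plasma glycoprotein that binds phospholipids (chromosome 17, 64208151 to 64252643), was at 2131, 2066 and 2253 CPM in controls and at 1254, 1172 and 1311 CPM at 125 µM. The treated libraries all lay below the controls, with a log2 fold change of -0.79 ± 0.09 (edgeR adjusted p = 2.99e-05). ALDH1A1, which makes retinoic acid from retinaldehyde, was at 499.9, 487 and 526 CPM in controls and at 317, 271 and 301 CPM in treated cells (-0.77 ± 0.09). These falls stood beside a lower summed level of the hepatocyte markers, 6 of which fell, 1 rose and 3 did not pass among the 10 tested. The part of that shift in them was not tested.

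Other moderate falls were of genes with various roles. ARHGAP18, which switches off small GTPases, fell from 441, 460.4 and 460.2 CPM to 251, 252 and 274 CPM, a log2 fold change of -0.81 ± 0.08 (edgeR adjusted p = 9.46e-06). HNRNPH1, an RNA-binding splicing regulator with close copies in the genome, was at 756, 719 and 649.8 CPM in controls and at 404, 347 and 336 CPM at 125 µM (-0.97 ± 0.10). QKI, another RNA-binding protein, was at 308, 248 and 277 CPM against 148, 149 and 169.6 CPM (-0.85 ± 0.10). None of these 3 genes had overlapping groups, as the rule that named them required. The list of named falls also held the splicing cofactor ARGLU1 (-0.90), 38.5% of whose reads lay in introns, the matrix protein FRAS1 (-0.92), the transcription factor NFATC3, which overlaps ESRP2 (-0.76), NUDT4, a hydrolase of inositol pyrophosphates with close copies (-0.98), and TTC21B and GPC6, described below with their groups.

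**Figure D1:**
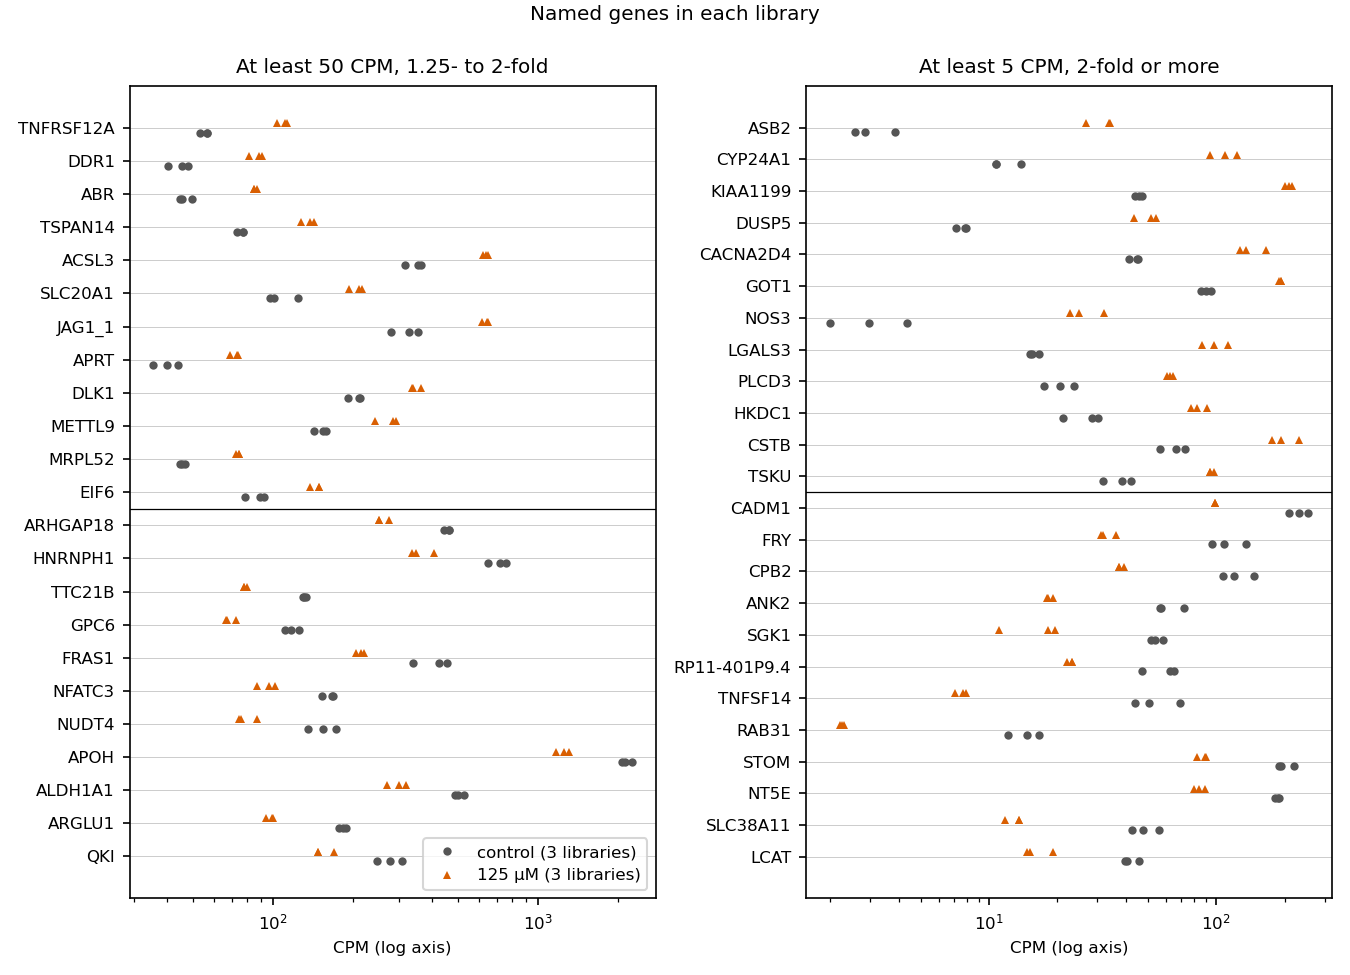
Each point is 1 library's level in CPM, on log axes, circles for the 3 controls and triangles for the 3 libraries at 125 µM. The left panel shows the well-expressed genes that changed moderately and the right panel those that changed by 2-fold or more, rises above the line and falls below it. In every gene shown the 3 treated libraries lie on 1 side of the 3 controls, as the rule that chose them required, and the log2 fold changes run from 3.38 for ASB2 to -2.85 for TNFSF14.

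Changes of 2-fold or more numbered 591 rises and 788 falls, of which 340 and 363 had at least 5 CPM and groups that did not overlap. The smallest p among the rises belonged to ASB2, an adaptor of a ubiquitin ligase (chromosome 14, 94400499 to 94443137). It was at 2.83, 2.57 and 3.85 CPM in controls and at 26.7, 34.2 and 33.8 CPM at 125 µM, 10.4-fold higher (edgeR adjusted p = 2.27e-07). CYP24A1, the enzyme that breaks down active vitamin D (chromosome 20, 52769988 to 52790512), rose 9.43-fold from 10.7, 13.8 and 10.8 CPM to 109.8, 124 and 93.6 CPM. DUSP5, a phosphatase of the kinase ERK, rose 6.49-fold from 7.86, 7.12 and 7.95 CPM to 43.3, 54.5 and 51.8 CPM. In all 3 the lowest treated library was several-fold above the highest control.

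LGALS3, which encodes the sugar-binding galectin-3, was at 15.2, 16.6 and 15.4 CPM in controls and at 86.5, 112 and 97.6 CPM in treated cells (6.31-fold). KIAA1199, which takes part in breaking down hyaluronan, rose from 45.9, 44.1 and 47.0 CPM to 200.4, 215 and 209.6 CPM (4.57-fold) and overlaps MESDC2. HKDC1, a protein of the hexokinase family, rose 3.21-fold from 21.2, 30.3 and 28.5 CPM to 91.5, 77.4 and 82.2 CPM. The cytosolic aspartate aminotransferase GOT1 had close replicates, 95.2, 90.6 and 85.4 CPM against 193, 193 and 189.8 CPM (2.11-fold). NOS3, the nitric oxide synthase named for endothelium, was at 1.99, 2.97 and 4.36 CPM against 25.0, 22.7 and 31.9 CPM (9.07-fold), and overlaps ATG9B. Of the endothelial markers, KDR and TEK were at 0 reads and PECAM1 had no feature of that name. The only 1 with enough reads to be tested was called lower (log2 fold change -2.045). It was at 0.594 to 3.25 CPM in controls and 0.166 to 1.47 CPM at 125 µM, groups that overlapped near the level of 3 reads. The rule also named the calcium channel subunit CACNA2D4 (3.29-fold), the phospholipase C PLCD3 (3.09-fold), which overlaps NMT1 and ACBD4, the protease inhibitor CSTB (3.11-fold) and the secreted TSKU (2.59-fold).

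Among falls of this size, the adhesion molecule CADM1 (chromosome 11, 115039938 to 115375675) had the smallest p, at 254, 210.1 and 232 CPM in controls and at 98.4, 98.8 and 98.4 CPM at 125 µM (log2 fold change -1.24 ± 0.09, edgeR adjusted p = 1.01e-06). TNFSF14, a cytokine of the tumour necrosis factor family, fell from 50.5, 43.7 and 69.5 CPM to 7.89, 7.05 and 7.71 CPM (-2.85 ± 0.25). RAB31, a GTPase of membrane traffic, went from 16.6, 12.1 and 14.6 CPM to 2.31, 2.24 and 2.202 CPM (-2.68 ± 0.24). No library of either gene crossed between the groups, as the rule that named them required. The kinase SGK1 was at 58.1, 53.6 and 51.8 CPM against 19.5, 18.2 and 11.01 CPM (-1.66 ± 0.14). CPB2, a carboxypeptidase of blood plasma made by the liver, fell from 147, 120.3 and 107 CPM to 37.3, 39.3 and 37.4 CPM (-1.72 ± 0.13), and overlaps an antisense gene, CPB2-AS1. It fell beside the lower hepatocyte markers given above. Further falls were the membrane scaffold ANK2 (-1.75), FRY with its antisense gene (-1.78), stomatin, STOM (-1.20), the amino acid transporter SLC38A11 (-1.95), with 45.6% of its reads in introns, LCAT, which esterifies plasma cholesterol and overlaps SLC12A4 (-1.35), and RP11-401P9.4, whose reads were all counted as intronic (-1.37). Whether the counting used strand is not given in the sources used here, so reads of a gene and its antisense partner cannot be told apart.

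Proteoglycans, proteins with long sugar chains that bind growth factors at the cell surface and in the matrix, were among the lists with the largest share of rises. Of 30 tested genes of heparan sulfate and other proteoglycans 18 rose (60.0%), 2 fell and 10 did not pass, and their median log2 fold change was 0.41, beside 20.3% higher, 19.9% lower and 0.0036 over all tested genes. The heparan sulfate carrier SDC4 was at 53.5, 82.7 and 60.03 CPM in controls and at 157, 185 and 173 CPM at 125 µM, with no overlap (1.40 ± 0.15, edgeR adjusted p = 1.62e-05). CSGALNACT2, which starts chondroitin sulfate chains, rose from 19.6, 31.7 and 24.1 CPM to 50.1, 54.0 and 62.8 CPM (1.15 ± 0.15). SULF2, which removes sulfate groups from heparan sulfate, rose by 1.21 ± 0.17 and overlaps NCOA3. GPC6, a glypican anchored in the membrane, went the other way, from 125, 111 and 117 CPM to 67.3, 72.9 and 66.4 CPM (-0.77 ± 0.09).

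S100 proteins and annexins bind calcium, and many annexins bind membrane phospholipids. Of 20 tested, 11 rose (55.0%), 3 fell and 6 did not pass, and the median was 0.47. Taken by name, 7 of 11 S100 genes rose and 1 fell, and 4 of 9 annexin genes rose and 2 fell. S100P was at 28.3, 43.7 and 38.2 CPM in controls and at 221, 280.2 and 247 CPM at 125 µM, 6.91-fold higher (edgeR adjusted p = 9.46e-06). S100A16 was at 22.2, 19.0 and 26.7 CPM against 64.9, 74.0 and 66.1 CPM (3.06-fold). S100A11 was at 8.07, 7.52 and 12.1 CPM against 28.0, 31.4 and 29.4 CPM (3.32-fold), and S100A14 was 5.12-fold higher at levels under 10 CPM. In each of these 4 genes all treated libraries lay above all controls. S100 genes resemble each other, and the files hold almost no reads that map to several places.

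In the lists of the cytoskeleton most genes did not pass, and the shares of rises were not far above the 20.3% over all tested genes, of which 19.9% fell. Of 32 tested tubulins and microtubule motors 9 rose (28.1%), 1 fell and 22 did not pass, with a median of 0.15. The rises were mostly of tubulins, the building blocks of microtubules, of which 6 of 10 rose, none fell, and the median was 0.85. TUBB was at 350.4, 425 and 437 CPM in controls and at 848, 956 and 924 CPM at 125 µM (1.17 ± 0.11, edgeR adjusted p = 3.76e-06), and TUBA1B at 42.5, 52.6 and 57.7 CPM against 109, 118 and 132 CPM (1.24 ± 0.13). TUBA1C and TUBB6 rose by 1.15 and 1.03 and overlap other genes, and all tubulins have close copies that may share reads. Of 18 keratin, desmosome and lamin genes 5 rose (27.8%), 1 fell and 12 did not pass. KRT19, a keratin of bile duct cells and of liver tumour lines, rose from 56.7, 80.7 and 86.7 CPM to 200.0, 239 and 213 CPM (1.56 ± 0.17). The markers of cholangiocytes, KRT19 among them, summed to 264 to 296 CPM in controls and to 378 to 423 CPM at 125 µM, with CFTR at 0 reads. KRT19 alone went from a mean of 74.7 to 217 CPM, so the higher sum is not a rise of these markers as a set. Of the 3 that were tested only KRT19 rose and 1 fell, with a median log2 fold change of -0.16. The part of such cells in these changes was not tested. The desmosomal cadherin DSG2 rose by 0.82, and KRT18, which overlaps KRT8, by 0.42.

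Promoters of 3 genes that rose are printed as examples from the lists of mitochondrial import, purines and S100 proteins, each with at least 1 of 4 searched motifs. They were chosen after the values were seen. The sequences are RefSeq's on GRCh38.p14, from 250 bases before to 50 bases after the gene start, read on the strand of the gene, and their coordinates are not comparable with the hg19 positions of the deposited files. Capitals mark a motif: TGANTCA or CACGTG, an E-box, in TIMM10 (chr11:57530705-57531004, minus strand) and NME1 (chr17:51153309-51153608, plus strand), and ACATTCC, bound by TEAD factors and here on the opposite strand, in S100A16 (chr1:153613088-153613387, minus strand). TGANTCA takes any middle base and is a loose form of the AP-1 site, so not every match is that site. Its middle base is A in TIMM10 and G in NME1.
TIMM10: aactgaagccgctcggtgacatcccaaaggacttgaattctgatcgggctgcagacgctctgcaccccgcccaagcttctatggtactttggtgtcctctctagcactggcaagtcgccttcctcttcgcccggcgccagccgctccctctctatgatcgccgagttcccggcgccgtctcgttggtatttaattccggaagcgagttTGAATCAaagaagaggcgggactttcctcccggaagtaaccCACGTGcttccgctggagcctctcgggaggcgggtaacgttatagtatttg
NME1: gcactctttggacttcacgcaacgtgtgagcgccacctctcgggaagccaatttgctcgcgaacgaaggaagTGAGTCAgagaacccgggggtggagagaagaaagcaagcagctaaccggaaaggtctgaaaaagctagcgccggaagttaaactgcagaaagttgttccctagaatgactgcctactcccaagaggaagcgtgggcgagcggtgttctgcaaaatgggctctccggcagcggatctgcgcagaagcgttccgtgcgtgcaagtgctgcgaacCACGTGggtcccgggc
S100A16: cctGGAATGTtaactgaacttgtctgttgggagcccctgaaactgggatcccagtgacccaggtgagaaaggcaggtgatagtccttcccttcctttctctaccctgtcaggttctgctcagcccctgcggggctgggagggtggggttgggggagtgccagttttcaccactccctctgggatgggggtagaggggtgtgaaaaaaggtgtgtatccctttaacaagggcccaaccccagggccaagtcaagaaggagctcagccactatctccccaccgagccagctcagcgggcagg
The same motifs, searched on both strands and chosen after the values were seen, were counted in the 8961 tested genes that matched a promoter. TGANTCA was in 4.55% of all of them, in 7.01% of the 385 that rose by 2-fold or more and in 7.24% of the 442 that fell by as much. CACGTG was in 10.1, 7.27 and 8.82%, ACATTCC in 2.19, 2.86 and 3.62%, and TGACGTCA, the cyclic AMP response element, in 3.31, 1.04 and 0.905%. Over all 27305 promoters of the table the shares were 7.76% for TGANTCA, 7.43% for CACGTG, 3.48% for ACATTCC and 1.98% for TGACGTCA. These shares were not tested, and a match describes letters only.

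Receptor tyrosine kinases and their ligands, which pass growth signals across the membrane, moved in both directions. Of 26 tested, 7 rose (26.9%) and 8 fell (30.8%), and 6 of these changes were 2-fold or more. Over all tested genes 20.3% rose and 19.9% fell, so changes in both directions are not particular to this list. KLB, the co-receptor through which FGF19 and FGF21 act on the liver (chromosome 4, 39408473 to 39453156), was at 449, 227 and 335 CPM in controls and at 83.6, 58.9 and 78.2 CPM at 125 µM. Control libraries differed among themselves, but each was above every treated one, and the fall was 4.64-fold (edgeR adjusted p = 1.38e-05). AXL, the receptor of GAS6, rose from 4.61, 8.11 and 5.39 CPM to 31.3, 48.0 and 32.7 CPM (6.503-fold, edgeR adjusted p = 2.99e-05). ERBB2 fell from 207, 161 and 192 CPM to 116, 104 and 93.6 CPM (-0.83 ± 0.11) and overlaps PGAP3 and MIEN1.

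Cytokine receptors and their signalling proteins moved in both directions. Of 29 tested genes of the JAK-STAT list, which also holds related receptors, 10 fell (34.5%) and 5 rose, with a median of -0.12. IL6R, the receptor through which interleukin-6 starts the acute phase response, rose from 24.7, 43.7 and 30.8 CPM to 79.1, 79.8 and 81.9 CPM (1.30 ± 0.16, edgeR adjusted p = 3.9e-05). STAT3, the transcription factor below that receptor, went from 268, 233 and 253 CPM to 172, 164 and 171 CPM (-0.57 ± 0.09). IL1R1, the interleukin-1 receptor, fell by 1.03 on the log2 scale and IFNGR2, an interferon gamma receptor chain that overlaps TMEM50B, by 0.67. Of 24 genes of the interferon response and antigen presentation 5 fell (20.8%), 3 rose (12.5%) and 16 did not pass. Over all tested genes 19.9% fell and 20.3% rose. DDX58, the sensor RIG-I, was at 35.4, 30.9 and 27.7 CPM against 14.1, 13.3 and 15.8 CPM (-1.17 ± 0.16), while IFI6 fell by 1.85 and TAPBP by 0.70.

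The Notch list had 5 rises (23.8%) and 3 falls (14.3%) among 21 tested genes and a median of 0.01. The counts of this list leave out JAG1, which is split into numbered features. Its well-expressed feature, given above, rose by 0.99. RBPJ, the DNA-binding partner of the Notch receptors, was at 106, 98.7 and 92.6 CPM against 64.7, 71.0 and 67.2 CPM (-0.55 ± 0.09), while the coactivator MAML2 rose from 23.0, 43.3 and 26.4 CPM to 59.5, 70.7 and 57.3 CPM (1.05 ± 0.19). Both had groups that did not overlap. Of 30 genes of mTORC1 and AMPK signalling, which couple growth to nutrients, 8 rose and 6 fell, 26.7% rising beside 20.3% over all tested genes, and the median was 0.10. The 4 members of smallest p were all falls, RPS6KB1 (-0.72), AKT1S1 (-0.68, overlapping TBC1D17), TSC1 (-0.50) and SESN1 (-0.54). Of 32 apoptosis regulators 9 rose (28.1%) and 6 fell (18.8%), beside 20.3 and 19.9% over all tested genes. BMF and BCL2L11, which promote apoptosis, fell, BMF going from 48.9, 43.7 and 50.3 CPM to 23.1, 23.2 and 22.8 CPM (-1.05 ± 0.11) and BCL2L11 to a log2 fold change of -0.83. MCL1, which restrains apoptosis, rose from 250.3, 255 and 255 CPM to 347, 387 and 377 CPM (0.55 ± 0.08), and XIAP, an inhibitor of caspases, rose by 0.48. Among members named after their values were seen, DIABLO, which promotes apoptosis, rose by 0.84, and BIRC3, an inhibitor of apoptosis, fell (-0.90).

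Pumps and channels for ions had 10 falls and 5 rises among 28 tested (35.7% and 17.9%, median -0.13), beside 19.9% falls and 20.3% rises over all tested genes. All 3 tested genes of the sodium pump, which keeps sodium out of the cell, fell. Its subunit ATP1B1 went from 782, 487 and 598 CPM to 300.4, 312 and 349 CPM (-0.96 ± 0.14, overlapping NME7), and ATP1B3 from 274, 169 and 215 CPM to 96.2, 73.6 and 98.4 CPM (-1.32 ± 0.18, edgeR adjusted p = 7.81e-05). ATP2B1, a calcium pump of the cell membrane, fell by 1.08 and overlaps LINC00936. ITPR3, which releases calcium from the endoplasmic reticulum, rose from 132, 188 and 147 CPM to 401, 393 and 371 CPM (1.32 ± 0.13) and overlaps UQCC2.

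Mitochondrial protein import had the largest share of rises of the 35 lists. Of 29 tested genes 18 rose (62.1%), 1 fell and 10 did not pass, with a median of 0.35. Of the 19 subunits of the inner and outer membrane translocases (TIMM and TOMM genes) 14 rose and none fell. TIMM10, a chaperone between the membranes whose promoter is printed above, was at 6.08, 6.13 and 6.16 CPM in controls and at 13.6, 14.2 and 17.6 CPM at 125 µM (1.26 ± 0.23, edgeR adjusted p = 7.37e-04). TOMM34 rose by 0.89, TIMM8B by 0.84 and TIMM17B by 0.79, and each overlaps a neighbouring gene. Of 16 genes of mitochondrial fusion, fission and mitophagy 7 rose and 2 fell. PHB, a scaffold of the inner membrane, was at 148, 161 and 157 CPM against 226, 210.1 and 189 CPM (0.43 ± 0.09), and its partner PHB2, which overlaps EMG1, rose by 0.51. MTFP1, which promotes fission, rose by 1.28, and the protease OMA1, which overlaps DAB1, by 1.49, both from under 4 CPM in every control.

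Of 23 genes of pyruvate dehydrogenase and the citric acid cycle 9 rose (39.1%) and 1 fell, with a median of 0.20. The mitochondrial malic enzyme ME2 was at 17.4, 18.2 and 14.9 CPM in controls and at 33.4, 34.4 and 36.7 CPM at 125 µM (1.03 ± 0.12, edgeR adjusted p = 2.33e-05). SUCLG2 and IDH2, enzymes of the citric acid cycle, rose by 0.70 and 0.68. Of 25 genes of purine and pyrimidine synthesis and salvage 11 rose and 2 fell, with a median of 0.26. APRT, which salvages adenine, was at 35.5, 44.1 and 40.02 CPM against 68.9, 73.3 and 74.2 CPM (0.86 ± 0.10). NME1, a nucleoside diphosphate kinase whose promoter is printed above, was at 14.7, 17.6 and 16.4 CPM against 29.9, 30.0 and 30.5 CPM (0.90 ± 0.14); it shares its span with NME2 and a readthrough gene. NT5E, the surface enzyme that turns AMP into adenosine, fell from 189, 181 and 187 CPM to 84.0, 79.7 and 89.2 CPM (-1.15 ± 0.11).

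Of 14 genes of haem synthesis and breakdown 5 rose (35.7%) and none fell. Haem oxygenase, HMOX1, was at 20.6, 30.1 and 32.3 CPM in controls and at 56.1, 66.6 and 56.9 CPM at 125 µM (1.17 ± 0.16, edgeR adjusted p = 9.64e-05). The biliverdin reductases, which act after it, also rose, BLVRB from 8.81, 10.5 and 13.6 CPM to 25.5, 30.6 and 27.2 CPM (1.40 ± 0.16) and BLVRA by 0.91. UROD, an enzyme of haem synthesis, rose by 0.67. Of 10 genes of the pentose phosphate pathway 2 rose and 1 fell. The lists of NAD metabolism (3 rose and 3 fell of 16), polyamines (3 and 1 of 11) and peroxisomes (3 and 2 of 20) had medians of 0.05, 0.04 and 0.02.

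Phospholipid synthesis had 6 rises (18.2%) and 2 falls (6.06%) among 33 genes, beside 20.3 and 19.9% over all tested genes. Its largest rises were of acyltransferases that build phosphatidic acid or remodel phospholipids. AGPAT2 (chromosome 9, 139567595 to 139581875) was at 10.4, 7.92 and 10.00 CPM in controls and at 38.2, 55.6 and 37.8 CPM at 125 µM, 4.69-fold higher (edgeR adjusted p = 2.59e-06). LPCAT1 rose from 87.9, 131 and 114 CPM to 242, 307 and 228 CPM (2.36-fold), and AGPAT9 from 14.6, 28.5 and 16.4 CPM to 57.5, 51.7 and 62.4 CPM (2.91-fold). All 3 had groups that did not overlap. The other named rise was PEMT, which makes phosphatidylcholine in the liver (0.75). The median of the list was -0.02, and its sign depended on the processing, with -0.036 to 0.077 over the alternatives. Sphingolipid genes had 5 rises (17.9%) and 3 falls (10.7%) among 28, with SMPD1, the acid sphingomyelinase, at 0.86 and the ceramide kinase CERK at 0.44.

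In the lists of the secretory route most genes did not pass the test. Of 24 genes of the signal recognition particle and translocon, through which proteins enter the endoplasmic reticulum, 8 rose (33.3%) and 2 fell, among the rises SEC11A of the signal peptidase (0.50) and SSR2 (0.38). GPI anchor synthesis had 6 rises and 1 fall among 23, with GPAA1, which attaches the anchor, at 0.91 ± 0.15. N-glycan assembly had 6 rises and 1 fall among 31, with DPM2 at 1.19 and the oligosaccharyltransferase subunit DAD1 at 0.39. Vesicle coats of the COPI and COPII kinds had 5 rises and 4 falls among 33, with SEC23B at 0.46 and MIA3, which loads large cargo, at -0.39. The vacuolar proton pump had 4 rises and 1 fall among 17, the fall being ATP6V1A at -0.57. The shares of falls in these 5 lists, 3.23 to 12.1%, stood beside 19.9% over all tested genes. Their shares of rises, 15.2 to 33.3%, stood beside 20.3%.

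Genes that handle RNA moved in both directions. Of 50 tested spliceosome genes 13 rose (26.0%) and 14 fell (28.0%), with a median of 0.07. All tested genes also changed in both directions, with 20.3% higher and 19.9% lower. SR proteins, which guide the choice of splice sites, had 7 falls and no rise among 10, with a median of -0.41, whereas LSM proteins, small ring-forming RNA binders, had 5 rises and no fall among 6, with a median of 0.44. SNRP proteins, of the core of the spliceosome, had 5 rises and 2 falls among 11. Families were set by gene name after the values were seen, and differences between them were not tested. SRSF11 was at 347, 356 and 302 CPM in controls and at 195, 191 and 212 CPM at 125 µM (-0.76 ± 0.11, edgeR adjusted p = 8.62e-05), and SRSF5 at 282, 273 and 248 CPM against 155, 159 and 139 CPM (-0.82 ± 0.12). SF3B1, which helps to recognise the branch point, was at 789.5, 829 and 773 CPM against 535, 539 and 510.2 CPM (-0.59 ± 0.09). Of 40 genes of mRNA decay 15 fell (37.5%) and 5 rose, with a median of -0.13, which was 0.02 on both RPKM scales. The CCR4-NOT complex, which shortens poly(A) tails, had 6 falls and 1 rise among 9, CNOT8 at -0.62 and CNOT11 at -1.09, both overlapping other genes. The exosome, which degrades RNA from its 3′ end, had 3 rises and 1 fall among 10. UPF2 of nonsense-mediated decay was at -0.59 ± 0.09.

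DNA repair had 17 rises (33.3%) and 3 falls among 51 genes and a median of 0.19. FANCE of the Fanconi pathway rose by 1.10, and ERCC1 and OGG1, of excision repair, by 0.81 and 0.91, both overlapping neighbours. Chromatin remodelling and Polycomb had 9 falls (22.5%) and 5 rises (12.5%) among 40. Its Polycomb members CBX2 and CBX8, neighbours on chromosome 17, were at 0.94 ± 0.14 and -0.73 ± 0.14. The nuclear pore had 5 of each among 29 (17.2%), with NUP205 at -0.93 and NUP155 at 0.57. RNA polymerase II and Mediator had 6 rises and 8 falls among 40, with the catalytic subunit POLR2A at -0.43 and the small subunit POLR2G at 0.80. Of 31 genes of the primary cilium 5 rose (16.1%) and 4 fell (12.9%). Over all tested genes 20.3% rose and 19.9% fell. TTC21B, which carries cargo back along the cilium, fell from 134, 131 and 131 CPM to 79.97, 77.9 and 78.2 CPM (-0.74 ± 0.08). Of 29 selenoprotein and thioredoxin genes 9 rose (31.0%) and 3 fell, among the rises the peroxidases GPX1, at 40.9, 38.4 and 37.7 CPM against 71.8, 64.2 and 73.05 CPM (0.82 ± 0.12), and GPX4 (0.51 ± 0.08).

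**Figure D2:**
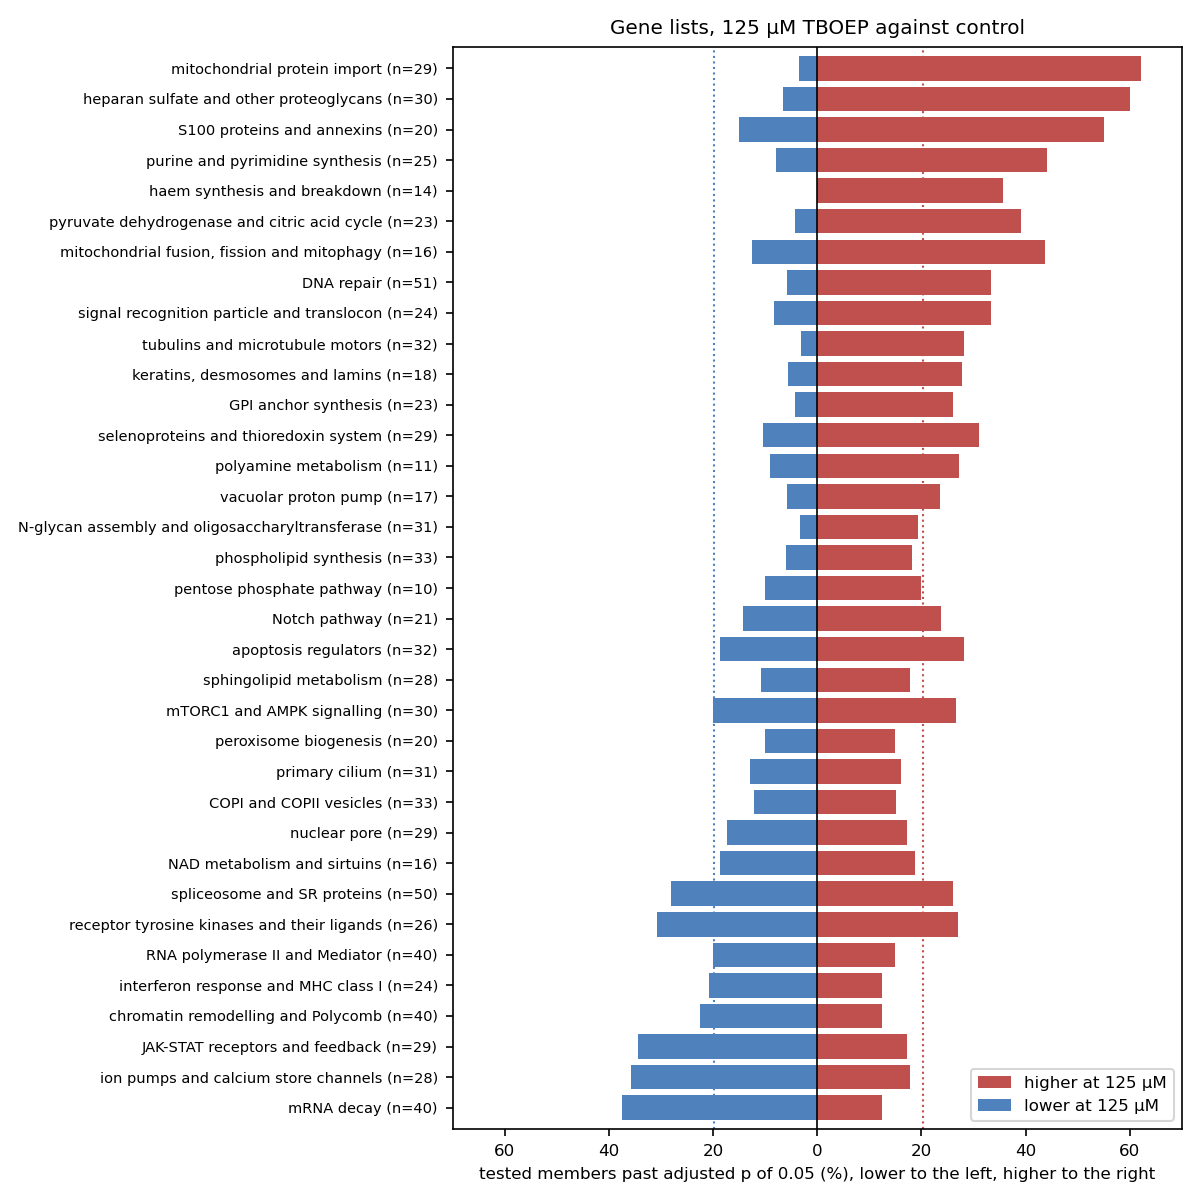
Each bar is the share of a list's tested genes (n beside its name) that passed an adjusted p of 0.05 in edgeR, higher at 125 µM to the right and lower to the left, with dotted lines at the shares over all tested genes, 20.3 and 19.9%. Mitochondrial protein import lies highest with 62.1% higher, and mRNA decay lowest with 37.5% lower.

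Changes of well-expressed genes went with the length of their exons. The genes of at least 50 CPM with annotated exons were put into 4 classes of equal size by exon length, a split chosen after the values were seen. In the shortest class (933 genes of 207 to 3769 exon bases) 332 genes were higher (35.6%) and 164 lower (17.6%), with a median log2 fold change of 0.11. In the longest class (933 genes of 8317 to 41453 bases) 134 were higher (14.4%) and 338 lower (36.2%), with a median of -0.13. The middle classes lay between, with 22.5 and 17.7% higher. The difference between the median levels of shortest and longest genes was 0.118, 0.115 and 0.121 in the treated libraries and -0.177, -0.115 and -0.0689 in the controls, each on the log2 scale and relative to the mean of all 6. The groups did not overlap and differed by 0.238, with an exact two-sided permutation p of 0.1, the smallest that 3 against 3 libraries allow. Among the lists, S100 proteins and annexins had a median exon length of 2192 bases, mitochondrial import of 3278, proteoglycans of 5326.5 and chromatin of 7074, beside 4540.0 over all tested genes. The part of length in the changes of the lists was not tested.

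**Figure D3:**
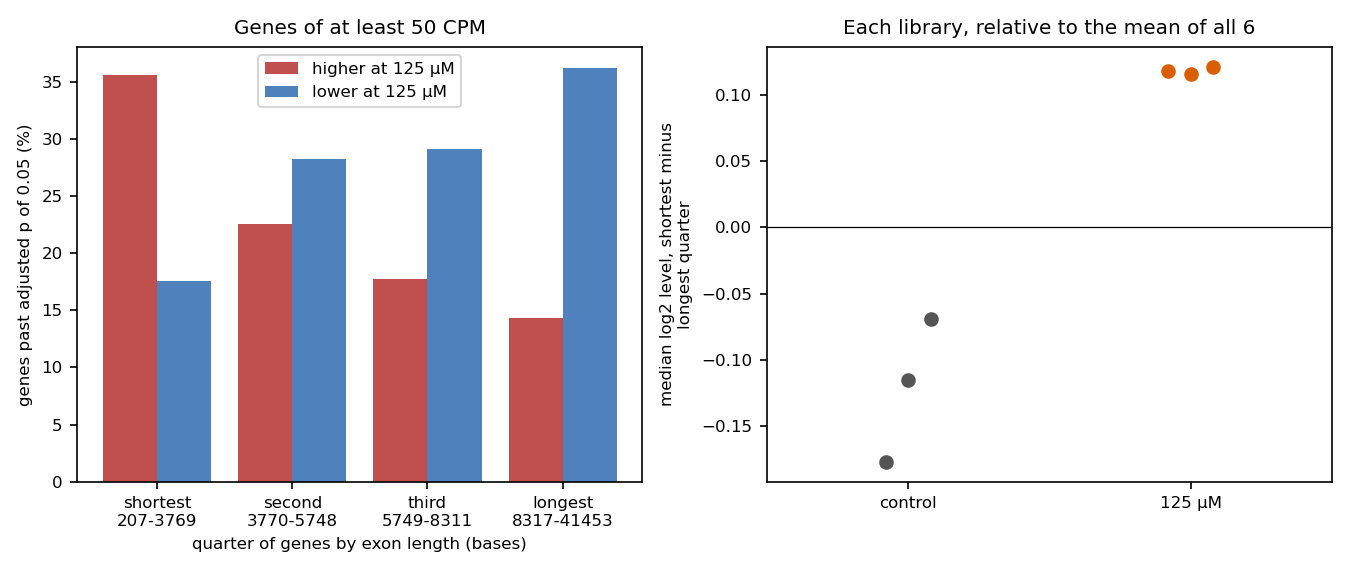
Left, bars give the share of genes of at least 50 CPM that were higher or lower at 125 µM in 4 classes of exon length in bases. The share higher declines from 35.6% in the shortest class to 14.4% in the longest, and the share lower grows from 17.6 to 36.2%. Right, each point is 1 library's median log2 level of the shortest minus the longest class, between 0.115 and 0.121 in the treated libraries and below 0 in all controls.

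Reads in introns made up a smaller share of gene reads in the 125 µM libraries than in the controls, but the libraries at 2.5 µM overlapped both groups. The share of the gene reads of nuclear genes that lay in introns was 7.24, 7.22 and 6.14% in controls and 5.50, 5.28 and 4.91% in treated libraries, with no overlap. At 2.5 µM it was 7.74, 5.33 and 4.93%, a spread wider than the difference between the groups compared. The means of those groups were 6.87% ± 0.628 and 5.23% ± 0.298 (SD, n = 3 each), a difference of -1.64 percentage points with an exact two-sided permutation p of 0.1, the smallest possible here. Within each of the 3 groups, the 2.5 µM libraries included, the share fell from replicate 1 to replicate 3. The permutation test did not pair libraries by replicate number, and the part of that number in the shares was not tested. Reads that cross a splice junction made up 40.1% ± 0.386 of exon reads in controls and 39.6% ± 0.440 at 125 µM, groups that overlapped (exact permutation p = 0.3). Genes that were lower had a median of 10.6% of their reads in introns and genes that were higher 5.27%, beside 8.05% over all tested genes.

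Exon and intron reads of the same gene were then compared within libraries. Tested were the 6846 genes with at least 10 of each on average over all 9 libraries. The exon change was above the intron change in 307 genes (4.48%) and below it in 259 (3.78%), 8.27% in all, as an interaction in edgeR's quasi-likelihood test with Benjamini-Hochberg adjustment. Scaled by library totals alone the counts were 402 and 176. Of these genes 201 and 203 do not overlap another tested gene. The counts depended on the tool and on single libraries: limma called 1 and 0 genes, with 648 and 552 at an unadjusted p under 0.05 where edgeR had 800 and 733. Without control 1 edgeR called 77 and 45 genes, without the first library at 125 µM 181 and 137, and without the second 64 and 60. In 205 of the 307 the exon reads were higher and the intron reads lower at 125 µM, and in 158 of the 259 the exon reads were lower and the intron reads higher. These signs hold on separate scales for exons and introns, which take out the smaller intron share at 125 µM. Choosing genes by the difference also favours opposite signs, and the share over all 6846 genes was not counted, so no conclusion is drawn from them.

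Named genes of this kind do not overlap another tested gene. Their levels are CPM taken over exon reads or over intron reads alone. The smaller share of intron reads at 125 µM is thus scaled out of the intron levels, which are relative to other introns. In HPCAL1, a neuronal calcium sensor protein also made outside the brain (chromosome 2, 10443015 to 10567743), exon reads were at 38.6, 40.9 and 47.9 CPM in controls and at 104, 117 and 109.5 CPM at 125 µM. Its intron reads were at 994, 706 and 837 CPM in controls and at 646, 484 and 569 CPM at 125 µM. Exon reads were thus higher and intron reads lower in all treated libraries, a log2 difference of 2.00 ± 0.21 (edgeR adjusted p = 4.96e-09). In GAB2, an adaptor below receptor tyrosine kinases, exon reads went from 27.6, 31.2 and 30.1 CPM to 60.8, 69.8 and 57.5 CPM and intron reads from 175, 138 and 220.3 CPM to 83.4, 64.2 and 81.3 CPM (2.37 ± 0.30). The other genes of this direction were NYAP1 (5.10), whose intron reads went from 708, 113 and 286 CPM to 14.9, 10.7 and 20.3 CPM while its exon reads stayed under 6 CPM, NFE2L3 (2.40), STXBP6 (2.02), COX7A2L (1.62), PSMA5 (1.52) and EPB41L2 (1.48).

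In the opposite direction RUNX1, a transcription factor (chromosome 21, 36160098 to 37376965), had exon reads at 61.5, 43.9 and 53.1 CPM in controls and at 61.9, 62.3 and 51.1 CPM at 125 µM, with overlapping groups. Its intron reads were at 285, 261 and 242 CPM in controls and at 634, 659 and 854 CPM at 125 µM, all higher. The log2 difference between exon and intron change was -1.22 ± 0.20 (edgeR adjusted p = 5.22e-05). HS3ST3B1, which sulfates heparan sulfate, had intron reads that were higher by more than its exon reads, with exon reads at 38.6, 45.3 and 43.5 CPM against 46.9, 52.9 and 50.1 CPM and intron reads at 208, 332 and 281 CPM against 750.3, 849 and 824 CPM (-1.36 ± 0.21). Gene reads, which hold both kinds, rose by 0.59 in this gene, a value looked up after the others were seen. In NT5E the exon reads went from 236, 211 and 225 CPM to 90.5, 81.7 and 91.8 CPM. The intron reads, scaled within introns, were at 281, 477 and 413 CPM in controls and at 411, 496 and 569 CPM at 125 µM (-1.71 ± 0.23). Before scaling these were 154, 135 and 75 intron reads in controls and 138, 232 and 56 at 125 µM. A rise of NT5E intron reads among all gene reads is therefore not shown. Its intron groups overlapped. PDE3A, a phosphodiesterase (-2.44), ANKRD10 (-1.33), AKIRIN2 (-1.34), FNBP4 (-1.17) and C16orf72 (-1.11) completed this direction. All 16 genes named from this test passed in each alternative except limma.

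**Figure D4:**
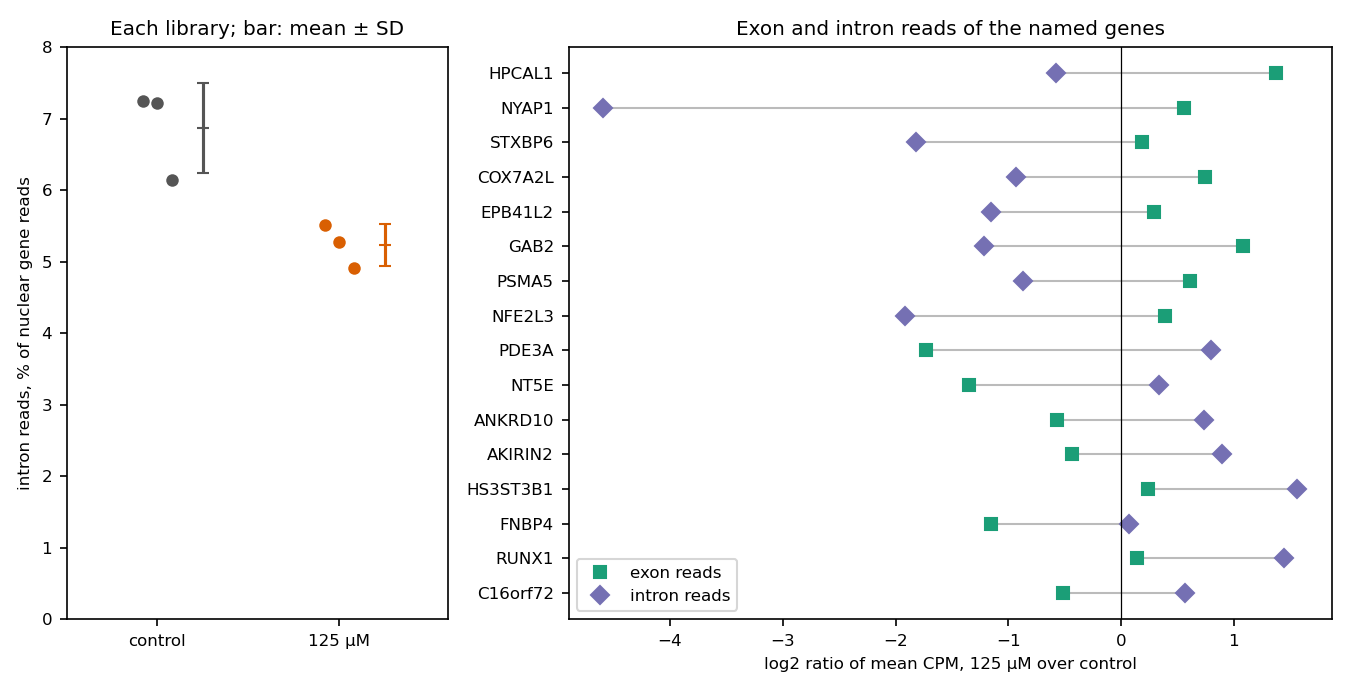
Left, each point is 1 library's share of nuclear gene reads that lie in introns, in percent, beside the mean ± SD of its group: 6.87% in controls and 5.23% at 125 µM. Right, squares give the log2 ratio of mean exon CPM and diamonds that of mean intron CPM, 125 µM over control, for the 16 named genes, with the 8 genes of exon change above intron change on top. Exon and intron reads were each scaled on their own. HPCAL1 has the square to the right of 0 and the diamond to the left, and RUNX1 has its diamond far to the right of its square.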

How the data were processed

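RNA of 9 HepG2 cultures was sequenced as polyadenylated RNA with the TruSeq Stranded mRNA kit and paired reads of 50 bp, and aligned to hg19, per the submitters' processing notes, in CLC Genomics Workbench, per the labels' design text. Not given in the sources used here are the version of that program, the gene annotation release and any use of strand in counting. The deposited gene, exon, intron and unique reads are whole-number counts without normalisation, per the file headers, and unique reads made up at least 99.997% of them. The deposited RPKM values are the authors' exon reads scaled by exon length and depth, per the file headers. The authors' quantile-normalised signal was not used here, since its libraries were set to 1 distribution.

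Groups came from the labels. Gene reads were filtered with filterByExpr, scaled by TMM and fitted with edgeR 4.0.16 (R 4.3.3, quasi-likelihood test) on all 9 libraries in 3 groups, with a two-sided contrast of 125 µM against control, Benjamini-Hochberg adjustment over 12901 genes. A gene passed at an adjusted p under 0.05. Replicates varied with a common biological coefficient of variation of 10%. Exon and intron counts were each scaled by their own TMM factors and fitted with the library as a block. CPM values are scaled by TMM, except those summed over markers. File positions were used after adding 1 to each start, upon which 68.8% of 33372 features matched by name to GENCODE 44 on GRCh37 had the same start and 1.16% did without. The steps were tested on simulated counts.

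The comparison, the 35 gene lists and the rule for named genes were chosen with earlier results of these data known. The 35 lists and 6 marker lists hold 1075 entries, of which 8 had no feature of that name. Genes named were, in each direction, the 12 of smallest p among moderate changes of at least 50 CPM and among changes of 2-fold or more with at least 5 CPM, both with groups that do not overlap; the 8 of smallest p in the exon against intron test that overlap no other tested gene; and up to 4 members of each list past the threshold. Some genes that meet this rule are not reported here. Alternatives were DESeq2 1.42.0, upper-quartile scaling, other filters, exon or unique reads, 6 libraries only, the replicate number as a block, RPKM with limma 3.58.1, and each library left out in turn.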

Additional observations from a re-analysis of the deposited data

How the results depend on the processing

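Of 182 genes named from gene reads, 173 kept their direction and call in all of the 16 alternatives that gave a value. H6PD, TKT, ODC1, SIRT7 and ATP6V0B lost the call only when a library was left out, SPTLC3 and PIGG only on RPKM, and ABCD3 and ATP6V1G1 in both ways. RP11-401P9.4 has an RPKM of 0 in all libraries and so no value on that scale. On RPKM + 0.5 and RPKM + 0.1 the genes lower numbered 1413 and 1393, and those moderately lower 427 and 435; the cause was not tested. Leaving out 1 library gave 1826 to 2627 genes higher and 1731 to 2642 lower, 519 to 634 moderately higher and 564 to 706 moderately lower. DESeq2 called 2040 and 2156.

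Replicate numbers are shared between the groups, but deviations of same-numbered libraries correlated at 0.103, 0.184 and 0.0597, so the numbers were not taken to pair the cultures, although each library correlated best with its own number. With the replicate block 2557 genes were higher and 2509 lower, and 612 and 668 moderately so.

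The exon against intron counts depended most on the fit. With only the 6 libraries of the comparison they were 472 and 417, with overlapping genes left out 220 and 163 and with limma 1 and 0. Leaving out 1 library gave 64 to 285 above and 45 to 211 below. The difference in intron share was -1.997 to -1.448 points without 1 library, and the length contrast, 0.235 from the fit, was 0.213 to 0.264 over its alternatives, which were added after the data were seen. Genes under about 3 reads a library, 1.12 CPM in the shallowest of the 6, cannot be measured here.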
